A study of Mus musculus with 8 samples.

Results

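Bone morphogenetic protein (BMP) ligands and the proteins that hold them back were followed through the cells of mouse bone and endosteal marrow. The set held 10 of the 32285 genes in the count matrices, chosen by symbol: the ligands Bmp2, Bmp3, Bmp4, Bmp5 and Bmp6, and the antagonists Grem1, Chrdl1, Nog, Fstl1 and Bambi. Each of the 10 was present in all 8 libraries. The set was chosen by name, with earlier results of these data known. Single-cell RNA was profiled from the femurs and tibiae of female mice in which 3 SOXC transcription factor genes, Sox4, Sox11 and Sox12, carry floxed alleles. Mutants (Sox4fl/fl Sox11fl/fl Sox12fl/fl OsxCre) also carried a Cre transgene driven by the Osterix (Sp7) promoter. It is active mainly in the osteoblast lineage and can be held off with doxycycline. The paper states that mice with this transgene were given doxycycline food until weaning, unless it says otherwise. Controls were floxed sisters without Cre (Sox4fl/fl Sox11fl/fl Sox12fl/fl), so an effect of the transgene itself and an effect of the deletion cannot be told apart. There were 2 mice per genotype at 7 weeks and 2 per genotype at 13 weeks, each mouse giving 1 library. Periosteum was scraped away, marrow flushed out, the bone digested with enzyme and blood cells depleted with magnetic beads before loading.

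BMPs are secreted dimers of the transforming growth factor beta family. They bind pairs of type I and type II serine/threonine kinase receptors, which phosphorylate SMAD1, SMAD5 and SMAD9, and these move with SMAD4 to the nucleus to switch on genes such as the Id family. Bone is the tissue in which the family was first recognised, by its power to induce ectopic bone, and its reach is limited by secreted proteins that trap the ligands and by a membrane decoy receptor.

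The libraries held 81894604 to 156090286 unique molecular identifiers (UMIs, 1 per captured transcript), and the libraries numbered replicate 1 were the deeper ones in every group. After removal of poor cells and called doublets, 59629 cells remained (6410 to 8753 per library), of which 47658 fell into 13 classes named by marker genes, 9 of them stromal. The names Lepr+ MSC (mesenchymal stem cell), Sca1+ MSC, Lepr+ OP (osteoprogenitor), preOB (preosteoblast), OB (osteoblast), GPC (growth plate chondrocyte), hypertrophic GPC, pericyte and endothelial mean cells like these by their markers, and the 10 members played no part in the clustering. Levels below are UMIs summed per mouse and class, scaled to CPM (counts per 1e6) with edgeR's TMM factors. These factors were computed among the mice of each class, so they do not adjust 1 class to another. The levels compare 1 gene between classes, not genes with each other. Differences between classes in the make-up of their RNA were not corrected. Of the deleted genes, Sox4 fell by 1.30 in Lepr+ MSCs, 1.36 in Lepr+ OPs, 1.36 in preOBs and 1.57 in OBs (log2, both ages, edgeR quasi-likelihood test with Benjamini-Hochberg adjustment, adjusted p = 0.00444, 0.000177, 0.00133 and 0.000592). Its log2 difference did not pass the test in GPCs (-0.63), hypertrophic GPCs (-0.04), endothelial cells (-0.23), pericytes (-1.05, adjusted p = 0.232, and 0.0335 when same-numbered mice of an age formed a block) or Sca1+ MSCs (-0.85). Sox12 fell in Lepr+ OPs, preOBs and OBs (by 1.74, 2.39 and 2.14), and Sox11 could be tested in GPCs and endothelial cells, where it did not pass.

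The ligands had different home cells. Bmp4, the classical osteogenic ligand of the marrow stroma (mm10 chr14:46383520-46390669, minus strand), was highest in Lepr+ MSCs at 523 ± 103 CPM (SD, n = 4 control mice), and Lepr+ OPs followed at 89.2 ± 22.2, a gap larger than either SD and without overlap between mice. The next classes, Sca1+ MSCs, preOBs and endothelial cells, lay between 23.5 and 28.2 CPM and did not differ beyond their spread. Bmp6, a ligand of the BMP5/6/7 branch (chr13:38345107-38500302, plus strand), had the same leading class, Lepr+ MSCs, at 215 ± 40.6 CPM. It then stood at 62.5 ± 11.9 in Lepr+ OPs and 58.3 ± 23.3 in hypertrophic GPCs, which were not separable with both ages pooled. In hypertrophic GPCs Bmp6 fell with age, as given below. Of all Bmp4 UMIs 54.1% lay in Lepr+ MSCs on average over the 8 mice, and 55.2% of those of Bmp6. Such shares, here and below, depend on how many cells of each class were captured. A source in this text means a source among the captured cells. OBs made up 41.4% of kept cells on average and Lepr+ MSCs 6.60%. The paper allows that the bones were possibly not fully digested. The second largest source of Bmp4 was the OB class (30.4%), which held 24709 cells, and that of Bmp6 hypertrophic GPCs (21.2%).

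Bmp2, the ligand most used to induce bone formation (chr2:133552159-133562885, plus strand), was highest in hypertrophic GPCs, the maturing cartilage cells, at 204 ± 28.3 CPM in the control mice. Lepr+ MSCs (108 ± 20.4), pericytes (102 ± 27.5) and Lepr+ OPs (88.4 ± 22.0) came next and did not differ from each other beyond the spread. OBs, the most numerous cells, had 44.4 CPM and held 48.4% of all Bmp2 UMIs, against 27.6% for hypertrophic GPCs, and they were the first source of Bmp2 in 7 of 8 mice. Bmp5, of the same branch as Bmp6 (chr9:75775364-75900310, plus strand), had no single leading class, with 117 ± 11.0 CPM in Lepr+ OPs, 117 ± 21.1 in Sca1+ MSCs and 103 ± 2.85 in Lepr+ MSCs, where neighbours in that order did not differ beyond their spread. OBs held 37.4% of its UMIs, Lepr+ MSCs 22.4% and Lepr+ OPs 16.4%. The gene Gm47723 overlaps Bmp5 on the same strand, so reads there may be divided between the 2 genes. Bmp3, an atypical family member that is abundant in bone matrix and opposes the osteogenic BMPs (chr5:98854415-98884396, plus strand), climbed with the order of the osteoblast lineage: 5.18 ± 1.02 CPM in Lepr+ MSCs, 31.1 ± 2.59 in Lepr+ OPs, 80.6 ± 40.3 in preOBs and 187 ± 31.5 in OBs. The preOB mice were wide apart and overlapped with Lepr+ OPs at the low end. The Lepr+ MSC value was near those of GPCs (5.58) and endothelial cells (7.09), and the part of free RNA in it was not tested. OBs held 94.3% of all Bmp3 UMIs.

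Among the antagonists, Grem1, Fstl1 and Chrdl1 had Lepr+ MSCs as the leading class. Grem1 (gremlin, which binds and blocks BMP2 and BMP4, chr2:113746164-113758646, minus strand) reached 528 ± 130 CPM there, 127 ± 32.7 in Lepr+ OPs and 17.7 ± 6.65 in preOBs, and 78.9% of its UMIs lay in Lepr+ MSCs. Fstl1 (a secreted follistatin-like glycoprotein, chr16:37776873-37836514, plus strand) was at 2092 ± 295 CPM in Lepr+ MSCs, which held 47.5% of its UMIs. It was at 964 ± 119 in Lepr+ OPs and 822 ± 236 in Sca1+ MSCs, which were not separable, and at 47.5 ± 4.84 in OBs. Chrdl1 (a chordin-like secreted antagonist, chrX:143285674-143394262, minus strand) was also high in cartilage, with 685 ± 144 CPM in Lepr+ MSCs, 186 ± 40.9 in hypertrophic GPCs and 151 ± 44.9 in GPCs. Lepr+ MSCs gave 48.1%, hypertrophic GPCs 25.2% and GPCs 17.4% of its UMIs. In OBs Grem1 (0.408 to 0.957 CPM over the 8 mice) and Chrdl1 (1.00 to 2.18 CPM) stayed within the range of the same gene in erythroid cells (0 to 4.35 and 0.741 to 4.48 CPM), taken here as the level of free RNA in the droplets.

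Nog and Bambi lay outside the Lepr+ MSC group. Nog (noggin, which caps the receptor-binding surface of BMP ligands, chr11:89300638-89302332, minus strand) was highest in cartilage, with 109 ± 34.2 CPM in hypertrophic GPCs and 75.0 ± 5.71 in GPCs, not separable from each other, against 26.8 ± 6.92 in Lepr+ MSCs. These 2 cartilage classes held 47.4% and 31.0% of its UMIs. Bambi (a membrane decoy receptor without a kinase domain) was highest in OBs at 499 ± 115 CPM, with endothelial cells (194 ± 36.9) and preOBs (171 ± 41.4) behind, and OBs held 90.2% of its UMIs.

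**Figure D1:**
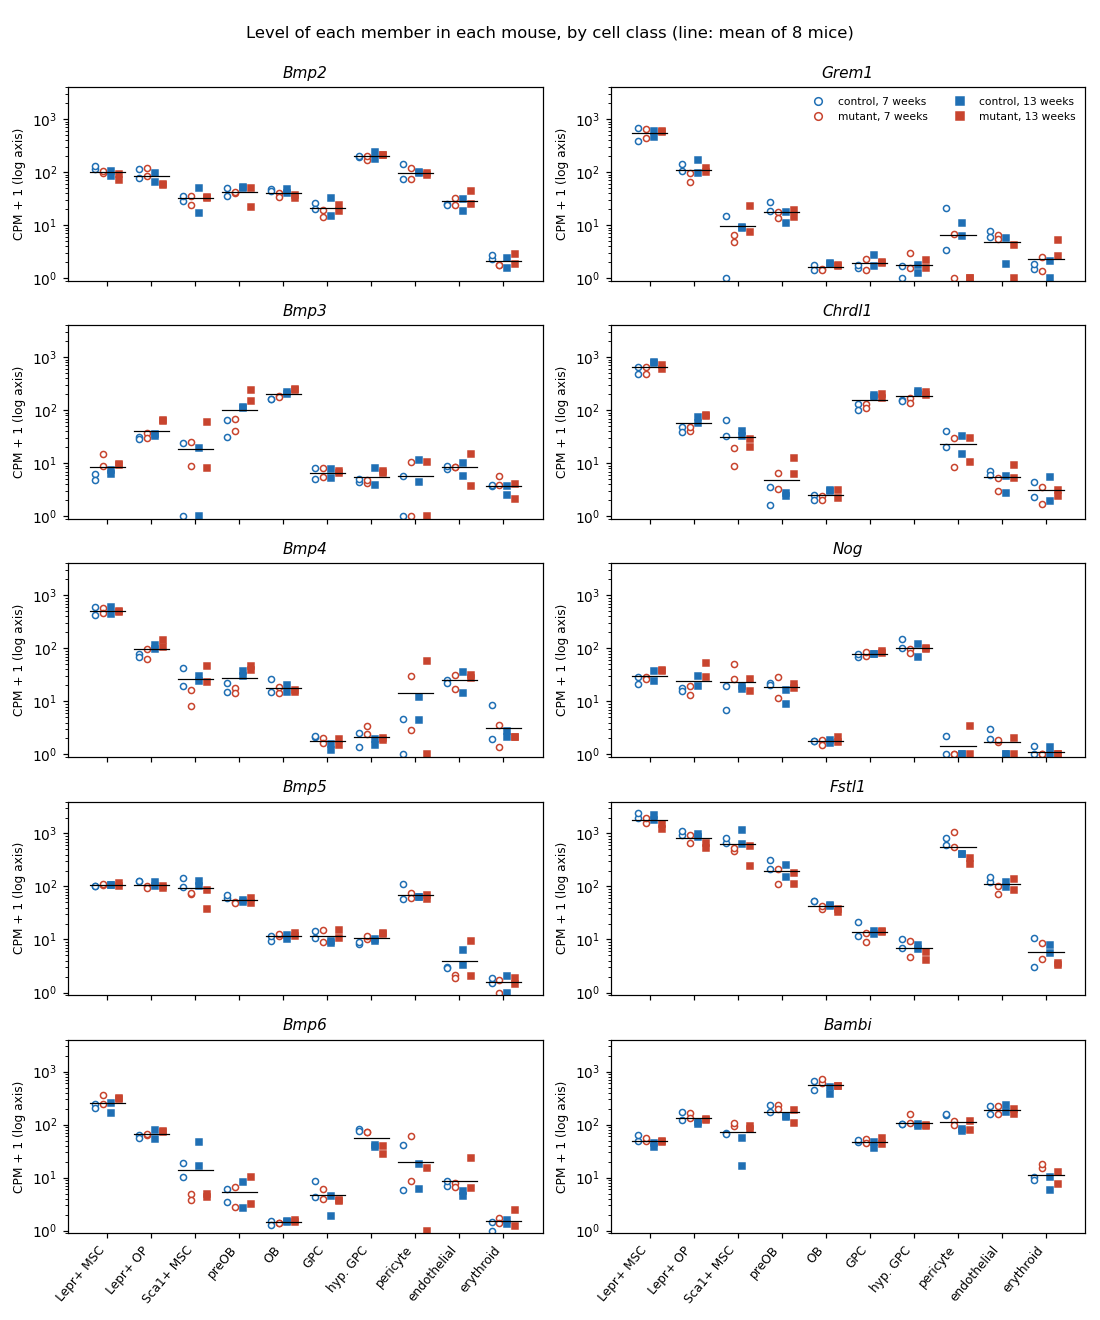
Level of each member in each of the 8 mice, as CPM plus 1 on a log axis, for the 9 stromal classes and the erythroid class. Open circles are 7 weeks, filled squares 13 weeks, blue controls, red mutants, and lines the mean of 8 mice. Lepr+ MSCs lead for Bmp4, Bmp6, Grem1, Chrdl1 and Fstl1, OBs for Bmp3 and Bambi, and hypertrophic GPCs for Bmp2 and Nog.

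The share of single cells holding a member's transcript was taken in the leading classes. After every cell was thinned to 2000 UMIs, 93.0% of Lepr+ MSCs held at least 1 Fstl1 UMI, 65.3% a Chrdl1 UMI, 53.6% a Bmp4 UMI, 49.7% a Grem1 UMI and 38.7% a Bmp6 UMI (means over 8 mice). In erythroid cells, which are not a known source of these proteins and were taken as a guide to free RNA, the shares were 0.609%, 0.558%, 0.443%, 0.208% and 0.134%. In the 293 thinned B cells, a class with a median of 2959 UMIs, they were 3.69%, 0%, 2.77%, 2.11% and 0% (means over mice with at least 10 such cells). Before thinning the median cell held 4985 UMIs among Lepr+ MSCs and 25286 among erythroid cells, and the unthinned shares for Fstl1 were 98.4% and 6.61%. Free RNA can make up a smaller part of a deeper cell. Thinned erythroid shares, here and below, can therefore understate the free RNA of shallower classes. The other 4 stood unthinned at 67.3% to 84.3% of Lepr+ MSCs and 0.905% to 2.91% of erythroid cells. In OBs 56.3% of thinned cells held Bambi and 32.1% Bmp3, against 2.16% and 0.552% in erythroid cells (unthinned 92.7% and 83.5%, against 17.9% and 5.56%). The median OB held 13132 UMIs. In hypertrophic GPCs, with a median of 15150, 24.6% of thinned cells held Bmp2, against 0.206% of erythroid cells (unthinned 63.9% and 2.57%). Nog was found unthinned in 55.4% of hypertrophic GPCs and 0.206% of erythroid cells, and in 14.6% of thinned hypertrophic GPCs. Thinning left out 184 Lepr+ MSCs, 340 OBs, 14 hypertrophic GPCs and 228 erythroid cells of fewer UMIs.

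Promoter sequence was available from RefSeq (GRCm38.p6, the mm10 build) for 5 of the 10 members. The 3 windows below are shown because these genes had their highest level in Lepr+ MSCs, where Sox4 fell, and because the windows lie before the first annotated exon. They were searched on both strands for ACAAAG (a SOX core), GTAAACA (FOX), TGTGGT (RUNX) and CCCNNGGG (EBF), found in 16.5%, 3.17%, 14.0% and 11.8% of all 32851 RefSeq windows of the 250 bases before a gene's start, and capitals mark a match. Bmp4 is at chr14:46390670-46390919 and Grem1 at chr2:113758649-113758898, both minus strand, and Fstl1 at chr16:37776805-37776872, plus strand, the 68 bases of its window that precede the annotated exon.
Bmp4: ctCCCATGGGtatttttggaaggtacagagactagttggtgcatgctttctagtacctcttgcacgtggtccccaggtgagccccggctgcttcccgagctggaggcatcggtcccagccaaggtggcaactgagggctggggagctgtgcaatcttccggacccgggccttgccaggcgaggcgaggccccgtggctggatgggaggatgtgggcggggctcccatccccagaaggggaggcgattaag
Grem1: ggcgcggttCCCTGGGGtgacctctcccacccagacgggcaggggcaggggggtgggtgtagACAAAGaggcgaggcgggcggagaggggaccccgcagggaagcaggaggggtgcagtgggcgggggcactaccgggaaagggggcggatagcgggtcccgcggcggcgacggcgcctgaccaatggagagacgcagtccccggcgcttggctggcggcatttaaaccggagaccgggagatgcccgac
Fstl1: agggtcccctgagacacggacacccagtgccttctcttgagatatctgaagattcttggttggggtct
The Bmp4 window held 1 EBF match, 248 bases before the start, and the Grem1 window 1 EBF match at 241 and 1 SOX match at 188. The Fstl1 stretch held none of the 4 motifs. A match describes letters only, and whether any factor binds there was not measured.

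Within the OB class, which was made of 7 clusters, 1 cluster of 1389 cells led by Ptprz1, Pdpn, Dmp1 and Phex carried 6 of the 8 osteocyte markers, against 2 to 5 in the other clusters. Osteocytes are former osteoblasts buried in the matrix they made. In this osteocyte-like cluster Bmp4 was at 87.4 ± 34.1 CPM (without TMM factors, SD, n = 8 mice) against 12.5 ± 2.54 in the other 6 OB clusters, a ratio of 6.97. Bmp2 was at 129 ± 25.0 against 34.4 ± 5.83, Bmp3 at 330 ± 62.3 against 193 ± 33.6, and Bambi at 930 ± 208 against 530 ± 114. Each of these 4 was higher in the osteocyte-like cluster in 8 of 8 mice. Bmp5 and Fstl1 were higher there in 3 of 8 mice each. These clusters were drawn from the same cells, so no test was made.

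**Figure D2:**
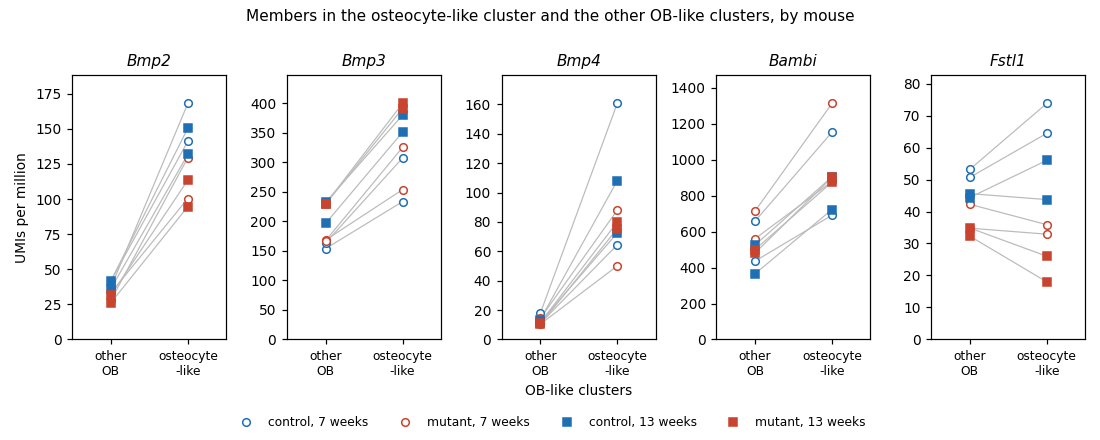
CPM of 5 members in the osteocyte-like cluster and in the 6 other OB-like clusters, with a line for each of the 8 mice. Bmp2, Bmp3, Bmp4 and Bambi are higher in the osteocyte-like cluster in every mouse, and Fstl1 there is 43.7 to 73.8 in the 4 controls and 18.0 to 35.9 in the 4 mutants.

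A cluster of 798 endothelial-like cells was left out of the classes because its median cell fell below the limit of 33.3% of its library's median UMIs. All 8 listed arterial markers and 3 of the sinusoidal ones were raised in it. In the endothelial class 6 arterial markers were raised in the main cluster of 3399 cells, and 8 in the other, of 36 cells. The low-UMI cluster held 144 ± 36.4 CPM of Bmp6 (SD, n = 8 mice), 18.5 times the 7.76 ± 6.12 of the endothelial class, and was higher in 8 of 8 mice. Fstl1 was at 395 ± 118 there against 110 ± 27.4, and Bmp2 at 73.9 ± 24.9 against 27.2 ± 8.52, again higher in 8 of 8 mice. Bambi was lower in 8 of 8 mice, at 129 ± 30.4 against 190 ± 28.1. Bmp4 was at 12.1 ± 8.17 against 24.7 ± 6.99, and higher in the low-UMI cluster in 1 of 8 mice. Grem1 and Chrdl1 were higher there in 4 and 5 of 8 mice. Free RNA can be a larger part of cells with few UMIs, and its part in these values was not tested.

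Genes with the most similar pattern over the 13 classes in control mice were ranked by Pearson's r of log2 CPM, among 11981 genes. For Bmp3 they were Mlip (r = 0.952), Car3 (0.950) and Insc (0.939), and for Bambi, Arl4d, Dab2ip and Ube2e2. For Bmp2 they were Enox1 (0.960), Emp2 (0.948) and Rhod (0.941), and for Bmp5, Atf5 (0.971), Daam2 (0.969) and Dact1. Grem1 was nearest to Ccbe1, Hunk and Marc1, Chrdl1 to Serpina3n, Scube1 and Fgfrl1, and Fstl1 to Gm26797, Rbms3 and C1ra. Bmp4 was nearest to Fzd5 (0.936), Ifnar2 (0.934) and Gm40841, Bmp6 to Rbp4, Tnfsf13b and Maob, and Nog to Efcab1, Adra2c and Gfpt2. The 13 points share libraries and differ in depth.

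The comparison of mutant with control mice asked whether loss of SOXC altered the BMP system in any class. Of the 87 pairs of member and class that could be fitted, 77 of them stromal, 0 passed an adjusted p of 0.05 at both ages together, at 7 weeks, at 13 weeks, or in the difference between the ages. DESeq2 also called 0. Bmp2, Chrdl1, Fstl1 and Bambi had enough UMIs for a fit in all 9 stromal classes, and Grem1, the member with the fewest, in 5. Over all genes and classes 0.488% of tests passed at both ages, 0.0535% at 7 weeks, 0.206% at 13 weeks and 0.000798% in the difference between ages. At an unadjusted p under 0.05 there were 16, 7, 12 and 2 of the 87, against 6%, 3.6%, 4.66% and 2.31% of all tests. In 8 classes, Lepr+ MSC, Lepr+ OP, preOB, OB and hypertrophic GPC among them, mice that shared an age and a replicate number deviated together, and a fit with that pair as a block called 7 of 87 at both ages (1 higher, 6 lower, among them Fstl1 in Sca1+ MSCs, a class where such mice did not deviate together), 1 at 7 weeks (lower) and 2 at 13 weeks (higher), against 1.85%, 0.442% and 0.717% of all tests. Mutants and controls were collected as pairs of sisters, and whether the number marks a pair is not given in the sources used here. The blocked values are given beside the results they change. The fit with this block had 2 residual degrees of freedom in classes with all 8 mice, against 4 without it.

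Fstl1 had a lower fitted level in the mutants in 9 of 9 stromal classes, from -0.85 to -0.11 (log2, both ages) with a median of -0.44. Each of the 4 pairs of mice with the same age and number was compared once in each of the 9 classes. The mutant was lower in 32 of these 36 comparisons, which repeat the same 8 mice. For this and later counts of classes with 1 sign, the share over all genes is not given here. How unusual such a count is therefore remains unknown. Fstl1 is highest in Lepr+ MSCs, and the part of their free RNA in the values of other classes was not tested. Fstl1 was scarce in hypertrophic GPCs, at 6.94 CPM in controls. There 1.32% of thinned cells held it, against 0.609% of erythroid cells. The part of free RNA in that value was not tested. In 4 of the classes (Sca1+ MSC, GPC, pericyte and endothelial) mice of the same number did not deviate together at every age. None of the 9 passed without the block, the lowest adjusted p being 0.105 in OBs. In Lepr+ OPs the 7-week controls had 915 and 1120 CPM and the mutants 657 and 936, and the 13-week controls 841 and 981 and the mutants 538 and 671. Only the 936 of a 7-week mutant reached into the control range. The log2 difference was -0.47 (SE 0.17, adjusted p = 0.347 by edgeR), and with the block Fstl1 fell by 0.48 (adjusted p = 0.0128). The summed OB markers of the Lepr+ OP class were higher in the mutants in 4 of 4 pairs (10710 to 17000 CPM in controls, 12770 to 20900 in mutants), and their part in the Fstl1 value was not tested.

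In OBs the 4 controls had 51.9, 51.4, 44.0 and 42.7 CPM of Fstl1 and the 4 mutants 37.2, 41.7, 37.0 and 31.7, with no overlap. The log2 difference was -0.36 (SE 0.09, adjusted p = 0.105), and with the block it fell by 0.37 (adjusted p = 0.00701). In preOBs the controls had 215, 314, 152 and 257 CPM and the mutants 109, 215, 110 and 182, and the groups overlapped, the replicate 2 mice being the higher ones in both genotypes. The log2 difference was -0.60 (SE 0.25, adjusted p = 0.505), and with the block Fstl1 fell by 0.62 (adjusted p = 0.00365). Without the block the value was -0.39 when replicate 1 of the 7-week mutants or replicate 2 of the 13-week controls was left out. At 7 weeks alone the difference was -0.71 (adjusted p = 1), and with the block Fstl1 fell by 0.76 (adjusted p = 0.0213). That difference, without the block, was -0.30 without replicate 1 and -1.28 without replicate 2 of the 7-week mutants, and -0.42 without replicate 2 of the 7-week controls. Every fit without a mouse leaves 1 mouse in a group, which is assumed to vary like the mice of the other groups. OB markers of the preOB class were higher in the mutants in 4 of 4 pairs (25210 to 59780 CPM in controls, 29450 to 66980 in mutants), and their part here was not tested.

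Lepr+ MSCs were the class with the largest share of captured Fstl1 UMIs. There the 7-week controls had 1931 and 2425 CPM and the mutants 1579 and 1944. The 13-week controls had 2241 and 1773 and the mutants 1194 and 1494. Mutants were lower in 4 of 4 pairs, with a log2 difference of -0.44 (SE 0.17), an adjusted p of 0.593 and of 0.146 with the block. Sca1+ MSCs had the lowest log2 value, -0.85 (SE 0.29, adjusted p = 0.127, and 0.0429 with the block), with 672, 836, 1150 and 632 CPM in controls, 473, 540, 583 and 248 in mutants and no overlap. Only 31 to 156 such cells were caught per mouse, and without replicate 1 of the 13-week mutants the adjusted p was 0.0195. In the Sca1+ MSC class the summed OB markers were higher in the mutants in 4 of 4 pairs (19110 to 62060 CPM in controls, 52880 to 107800 in mutants, 11 of 15 genes higher). The part of these markers in the Fstl1 value was not tested.

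**Figure D3:**
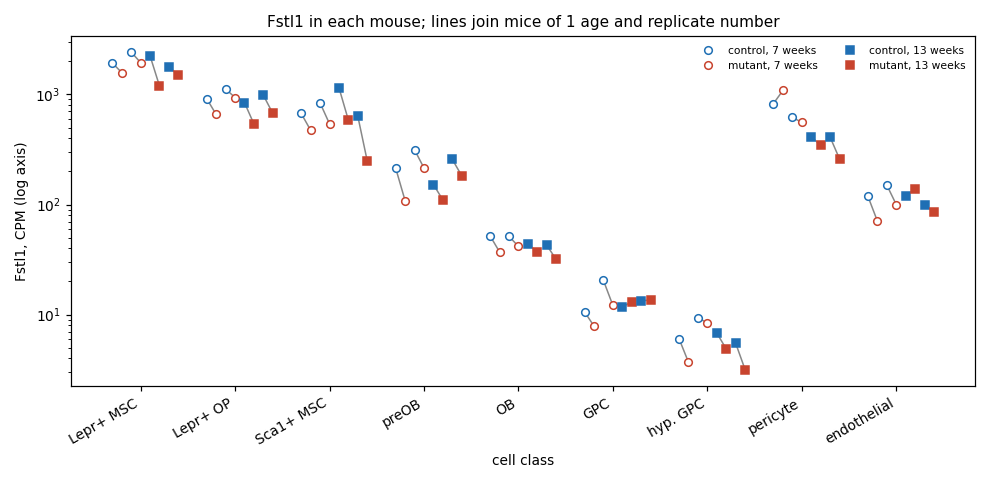
Fstl1 in CPM on a log axis, per mouse, in the 9 stromal classes. Lines join a control and a mutant that share an age and a replicate number, and 32 of the 36 lines, the same 4 pairs of mice in each class, go down.

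Bmp3 leaned the other way, with a log2 value above 0 in 7 of 7 stromal classes (0.03 to 0.89). The 4 pairs of mice, compared again in each of the 7 classes, had the mutant higher in 21 of 28 comparisons. Bmp3 was scarce in some of these classes, with 4.38 CPM in control hypertrophic GPCs. There 0.908% of thinned cells held it, against 0.552% of erythroid cells. The part of free RNA in such values was not tested. In Lepr+ OPs the 7-week controls had 30.3 and 27.9 CPM and the mutants 36.0 and 29.5, and the 13-week controls 32.2 and 34.0 and the mutants 61.2 and 65.9. The groups overlapped at 7 weeks and were well apart at 13 weeks. At both ages the log2 difference was 0.55 (SE 0.15, adjusted p = 0.153), and with the block Bmp3 rose by 0.56 (adjusted p = 0.021). At 13 weeks alone it was 0.94 (SE 0.22, adjusted p = 0.142, with the block 0.0106), and the difference between the ages, 0.78 (SE 0.31), did not pass (adjusted p = 1). The summed OB markers of the Lepr+ OP class, higher in mutants as given above, had 12 of 15 genes higher. Bmp3 is itself an OB-rich transcript here, and the part of these markers in its value was not tested.

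In preOBs at 13 weeks Bmp3 was at 116 and 110 CPM in controls and 235 and 151 in mutants, without overlap. The log2 difference was 0.78 (SE 0.32, adjusted p = 0.707), and with the block it was 0.76 with an adjusted p of 0.0211. Without the block it was 0.41 when replicate 1 of the 13-week mutants was left out and 1.25 under the 5% mitochondrial limit (adjusted p = 0.999 and 0.323). At 7 weeks the values were 65.4 and 30.6 in controls and 67.2 and 39.7 in mutants, a log2 difference of 0.13. The summed OB markers of the preOB class were higher in mutants in 4 of 4 pairs too (10 of 15 genes). In OBs Bmp3 was higher in 4 of 4 pairs, by 0.18 (SE 0.09, adjusted p = 0.538). In Lepr+ MSCs, where it was scarce, the controls had 3.88 to 6.37 CPM and the mutants 7.79 to 13.8, without overlap, a log2 difference of 0.89 (SE 0.27, adjusted p = 0.376, with the block 0.129). Of thinned Lepr+ MSCs 1.76% held Bmp3, against 0.552% of erythroid cells and 2.78% of B cells. The part of free RNA in this difference was not tested.

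Grem1 and Bmp2 each gave 1 call with the block. Grem1 in Lepr+ OPs was at 139, 104, 97.7 and 168 CPM in controls and 95.6, 63.1, 101 and 117 in mutants, lower in 3 of 4 pairs. The log2 difference was -0.46 (SE 0.19, adjusted p = 0.482), and with the block it fell by 0.44 (adjusted p = 0.0262). Without replicate 2 of the 13-week controls, and without the block, it was -0.23. OB markers were higher in the mutants of this class in 4 of 4 pairs, OBs themselves held 0.736 CPM of Grem1 in controls, and the part of these markers in the value was not tested. In Lepr+ MSCs, where most Grem1 UMIs were, the log2 difference was 0.10, with a 95% interval of -0.29 to 0.49. This and the later 95% intervals use a normal quantile with the SE. They are narrower than intervals from the test's own degrees of freedom would be. Bmp2 in OBs was at 47.5, 43.4, 48.0 and 38.7 CPM in controls and 39.1, 32.7, 31.4 and 36.4 in mutants, lower in 4 of 4 pairs with 1 mutant inside the control range. Its log2 difference was -0.35 (SE 0.11, adjusted p = 0.219), and with the block it fell by 0.35 (adjusted p = 0.0335).

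The other members gave no call with or without the block. Bmp6 in Lepr+ MSCs was at 239, 200, 166 and 256 CPM in controls and 367, 239, 310 and 299 in mutants, higher in 4 of 4 pairs with overlap. Its log2 difference was 0.50 (SE 0.18, adjusted p = 0.561, with the block 0.104). Bmp4 in Lepr+ MSCs differed by -0.04, with a 95% interval of -0.38 to 0.29, and Chrdl1 there by -0.16 (-0.48 to 0.16). Bambi in OBs was higher in 4 of 4 pairs, by 0.27 (SE 0.15, adjusted p = 0.57). Nog in GPCs, at 66.5 to 78.9 CPM in controls and 70.8 to 87.2 in mutants, differed by 0.10 (-0.15 to 0.35). Bmp5 in Lepr+ MSCs was at 99.3 to 106 CPM in controls and 99.9 to 116 in mutants, a difference of 0.07 (-0.19 to 0.32). In Sca1+ MSCs, where OB markers were higher in the mutants, Bmp5 (-0.91, SE 0.30, adjusted p = 0.11) and Chrdl1 (-1.12, SE 0.41, adjusted p = 0.162) were lower in 4 of 4 pairs and Bambi, the OB-rich decoy, higher in 4 of 4 (0.80, SE 0.29, adjusted p = 0.168). In preOBs Chrdl1 had a log2 value of 1.68 (SE 0.54, adjusted p = 0.277), on a total of 54 UMIs.

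**Figure D4:**
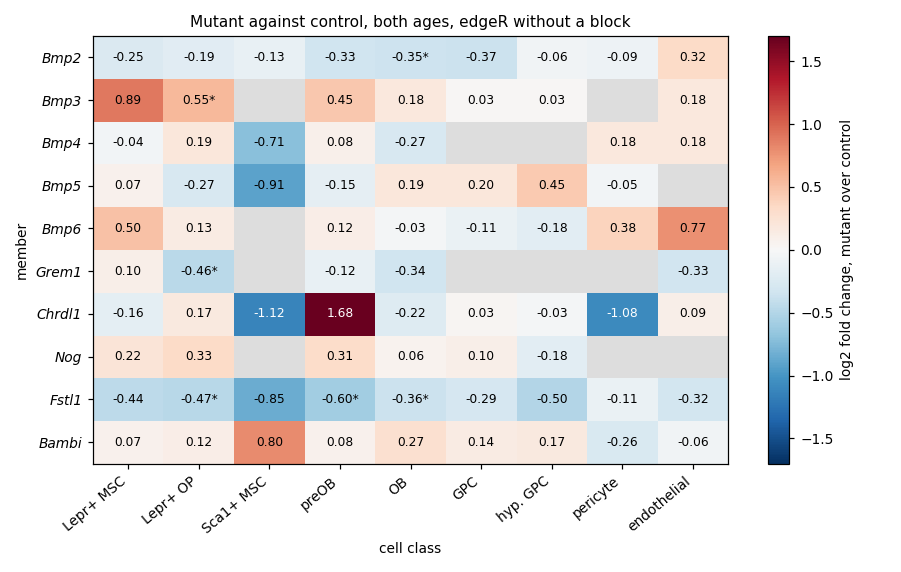
Log2 fold change of mutant over control at both ages for each member and stromal class, from the fit without a block, with grey where too few UMIs were present for a fit. An asterisk marks a pair called with the replicate block in a class where mice of the same number deviated together. Fstl1 is below 0 in all 9 classes and Bmp3 above 0 in all 7 fitted.

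The comparison of 13 with 7 weeks, over both genotypes, asked how the members stand in younger and older bone. In it 6 of the 87 pairs passed (4 higher, 2 lower), against 1.75% of all tests, and DESeq2 called 8. Whether the ages were handled on separate days is not given in the sources used here.

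Bmp3 and Bmp4 rose together in preOBs. Bmp3 was at 65.4 and 30.6 CPM in the 7-week controls and 67.2 and 39.7 in the 7-week mutants, and at 116, 110, 235 and 151 at 13 weeks, with no overlap. It rose by 1.53 (log2, SE 0.24, adjusted p = 0.00317). Bmp4 was at 14.1 and 21.0 CPM in the younger controls and 16.7 and 13.4 in the younger mutants, and at 28.6, 37.2, 38.2 and 45.0 in the older mice, also with no overlap. It rose by 1.18 (SE 0.20, adjusted p = 0.0048). The Bmp4 call was lost when cells over 5% mitochondrial UMIs were left out (0.85, adjusted p = 0.387) and when libraries were clustered without integration (0.57, adjusted p = 0.168). Summed OB markers in the preOB class overlapped between ages (26030 to 51000 CPM at 7 weeks, 25210 to 66980 at 13 weeks), and the preOB markers did not (18950 to 25140 against 25700 to 47810). Their part in the 2 results was not tested.

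In cartilage Bmp6 fell and Chrdl1 rose with age. Bmp6 in hypertrophic GPCs was at 82.5, 73.8, 72.2 and 70.8 CPM at 7 weeks and 37.4, 39.4, 39.1 and 26.4 at 13 weeks, with no overlap. It fell by 1.08 (log2, SE 0.15, adjusted p = 0.000845), and passed under all 17 alternatives tried, as did Bmp3 in preOBs. The summed hypertrophic markers of the same cells were lower at 13 weeks too, from 29240 to 37990 CPM down to 17830 to 24350, and their part in the result was not tested. Chrdl1 in hypertrophic GPCs was at 155, 147, 171 and 135 CPM at 7 weeks and 230, 211, 197 and 220 at 13 weeks, again with no overlap, and rose by 0.50 (SE 0.14, adjusted p = 0.0406). In GPCs it was at 131, 98.1, 131 and 108 CPM at 7 weeks and 196, 180, 172 and 202 at 13 weeks, and rose by 0.67 (SE 0.14, adjusted p = 0.0278). Neither Chrdl1 call was steady. That in GPCs was lost in 6 of the 8 fits without 1 mouse. That in hypertrophic GPCs was lost in 6 of these fits and also under the 5% mitochondrial limit. Over the 17 alternatives the log2 value lay between 0.54 and 0.79 in GPCs and between 0.43 and 0.59 in hypertrophic GPCs. Whether single mice or the smaller number of mice in a fit lost the calls was not tested. The GPC call held only without replicate 2 of the 13-week controls or replicate 1 of the 13-week mutants, and the hypertrophic GPC call only without replicate 1 of the 7-week mutants or replicate 2 of the 13-week controls. The other members fitted in hypertrophic GPCs did not pass, with log2 values of 0.13 for Bmp2, 0.61 for Bmp3, 0.25 for Bmp5, -0.14 for Nog, -0.38 for Fstl1 and -0.26 for Bambi. The median there was 0.19 over the 4 ligands and -0.20 over the 4 antagonists, against -0.01 for all genes of the class. The fitted log2 value of Chrdl1 was above 0 in 9 of 9 stromal classes (median 0.48). OBs and preOBs held only 1.72 and 1.59 CPM of it in controls, and OBs lay within the erythroid range given above. GPCs, rich in Chrdl1, were 1.33% to 2.49% of cells at 7 weeks and 4.28% to 5.76% at 13 weeks. Hypertrophic GPCs were 2.18% to 3.14% and 4.68% to 7.91%. The part of free RNA in the Chrdl1 values was not tested. Bambi was below 0 in 9 of 9, from -0.63 to -0.01, with 0 calls.

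Fstl1 fell in pericytes, the cells that wrap small vessels, from 825, 617, 1086 and 557 CPM at 7 weeks to 412, 408, 345 and 259 at 13 weeks, with no overlap and by 1.06 (log2, SE 0.28, adjusted p = 0.0449). This was the least steady of the 6. Pericytes numbered 13 to 223 per mouse, the call was lost in 9 of 17 alternatives, among them every fit without 1 mouse except replicate 2 of the 7-week controls or mutants, and without cells over 5% mitochondrial UMIs the value was -0.25 (adjusted p = 0.994). Summed Lepr+ MSC markers in the pericyte class were 2195 to 7557 CPM at 7 weeks and 1683 to 2659 at 13 weeks, and pericyte markers 15190 to 32380 and 33020 to 38810. Fstl1 is highest in Lepr+ MSCs, and the part of their RNA in this result was not tested.

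**Figure D5:**
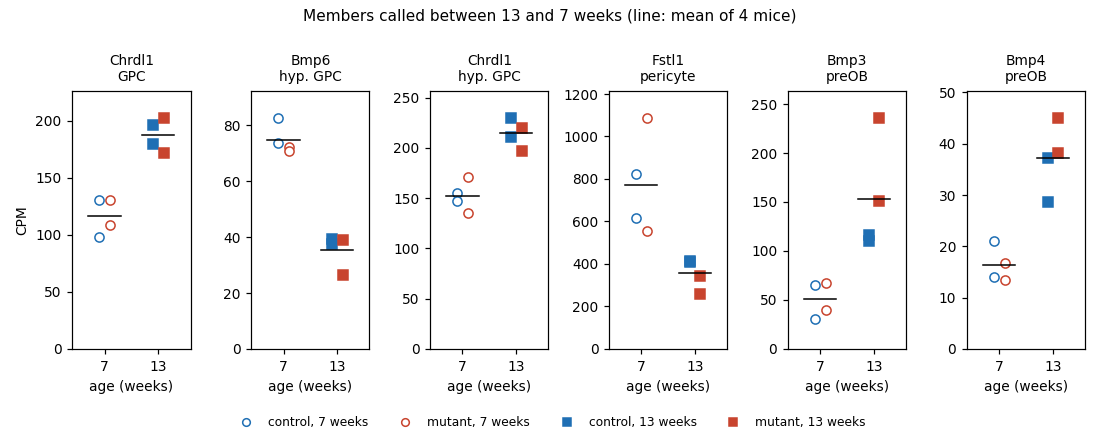
CPM per mouse at 7 and 13 weeks for the 6 pairs of member and class called between the ages, controls in blue and mutants in red, with lines at the mean of 4 mice. The 2 ages do not overlap in any panel.

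Mice of the same genotype and replicate number also deviated together between the ages in Lepr+ OPs, preOBs, OBs and hypertrophic GPCs. The block for this contrast was a term for the replicate number, shared by both genotypes and both ages, and not the pair itself. With it 12 of the 87 pairs of member and class passed, against 4.21% of all tests. The 6 added calls lay in Lepr+ OPs and OBs. In Lepr+ OPs, with the block, Chrdl1 rose by 0.71 (adjusted p = 0.0106, without it 0.0519), Nog by 0.98 (0.0283, without it 0.0731), Bmp4 by 0.61 (0.0179, without it 0.122, and with a value of 0.38 under the 5% mitochondrial limit) and Bmp3 by 0.57 (0.0384, without it 0.13), and Bmp2 fell by 0.54 (0.0304, without it 0.232). Chrdl1 there was at 37.2 to 48.3 CPM at 7 weeks and 56.2 to 79.9 at 13 weeks, with no overlap, and Nog at 12.1 to 18.2 and 18.6 to 52.6. In OBs Bmp3 was at 160, 163, 185 and 174 CPM at 7 weeks and 202, 225, 255 and 240 at 13 weeks, with no overlap. It differed by 0.43 (log2, SE 0.09, adjusted p = 0.0509), with an adjusted p of 0.0108 with the block and 0.00314 by DESeq2.

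Around the members, 52 other genes of the pathway were read in the same fits, again over the 9 stromal classes. Of other ligands, 2 of 22 tests rose in mutants and 1 fell at both ages, with a median log2 value over the list of 0.24 against -0.06 to 0 for all genes of a class, and 0.488% of all tests passed. Bmp8a, a ligand of the BMP7 branch, rose in Lepr+ OPs from 6.32, 2.74, 9.82 and 5.34 CPM in controls to 11.0, 16.6, 27.3 and 20.0 in mutants, with no overlap, by 1.57 (log2, SE 0.29, adjusted p = 0.0155). It rose in preOBs from 10.8 and 9.61 CPM to 27.9 and 29.6 at 7 weeks and from 31.6 and 45.3 to 52.7 and 63.9 at 13 weeks, by 1.05 (SE 0.19, adjusted p = 0.0218), and by 1.44 between 7 and 13 weeks (adjusted p = 0.00103). The Lepr+ OP call was lost without replicate 2 of the 7-week mutants, without replicate 1 of the 13-week mutants and under the 5% mitochondrial limit (adjusted p up to 0.199). OB markers were higher in the mutants in 4 of 4 pairs in both classes, and their part in the Bmp8a values was not tested. The preOB genotype call was lost in 7 of 17 alternatives (adjusted p up to 0.38), held without replicate 2 of the 13-week controls or replicate 1 of the 13-week mutants, and was lost in each other fit without 1 mouse. Gdf10, also called BMP3B, fell in Sca1+ MSCs from 187, 88.3, 156 and 150 CPM in controls to 50.8, 19.7, 38.4 and 35.4 in mutants, by 2.12 (SE 0.33, adjusted p = 0.00124), and Rgmb, a BMP co-receptor, fell there by 2.14 (SE 0.45, adjusted p = 0.0104). In the Sca1+ MSC class 4.96% of the 5060 genes tested passed at both ages without the block, the highest share of any class. With the block it was 4.05%, against 8.19% in OBs. OB markers of the Sca1+ MSC class were higher in the mutants in 4 of 4 pairs. Their part in the Gdf10, Rgmb and Id2 values was not tested. The Gdf10 call at both ages held in all 17 alternatives, and the Rgmb call was lost without replicate 2 of the 7-week mutants or replicate 1 of the 13-week controls (adjusted p up to 0.351).

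Of the 12 target genes, 2 of 92 tests rose and 0 fell in mutants at both ages, with a median log2 value of 0.04, against 0.488% of all tests and 1.36% of those in OBs. Id1, the textbook BMP-SMAD target, rose in OBs from 24.3, 27.5, 22.0 and 35.4 CPM in controls to 43.8, 46.0, 48.2 and 50.4 in mutants, with no overlap, by 0.79 (SE 0.14, adjusted p = 0.0258). That call was lost in 6 of the 8 fits without 1 mouse, all but those without a 13-week control (adjusted p up to 0.0982). Id2 rose in Sca1+ MSCs by 1.33 (SE 0.33, adjusted p = 0.0267). That call was lost without replicate 2 of the 7-week controls, replicate 1 of the 7-week mutants or replicate 1 of the 13-week controls (adjusted p up to 0.269), and under the 5% mitochondrial limit, where the value was 0.64 (adjusted p = 0.291). Among 64 tests of receptors, 68 of SMADs and 65 of other antagonists, Rgmb was the 1 that passed, a share near that of all tests. With each age taken alone, the 1 call in these lists was Gdf10 in Sca1+ MSCs at 13 weeks (-2.06, SE 0.44, adjusted p = 0.0168), where 3.74% of the genes of that class passed. It was lost without replicate 1 of the 13-week controls (adjusted p = 0.35) or replicate 1 of the 13-week mutants (0.0694), again with 1 mouse left in a group.

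Between the ages, 8 of 92 target tests rose and 3 fell, and of 22 tests of other ligands 2 rose and 1 fell, against 1.75% of all tests. Of the target calls 5 lay in hypertrophic GPCs, where 8.26% of all genes passed, 3 in endothelial cells (1.28%), 2 in preOBs (2.61%) and 1, a rise of Id2, in GPCs (2.99%). In hypertrophic GPCs, where Bmp6 fell and Chrdl1 rose, Id1 rose by 0.94 (adjusted p = 0.00396), Id2 by 1.10 (adjusted p = 0.002) and Id4 by 1.38 (adjusted p = 0.00362), while Dlx3 fell by 1.76 (adjusted p = 0.00192). These 4 calls held in all 17 alternatives. Gdf5, a ligand of joints and cartilage, fell there by 2.43 (adjusted p = 0.0036, and 0.0917 under the 5% mitochondrial limit). Gdf10 rose there by 0.72 (SE 0.20, adjusted p = 0.0396), a call lost in 8 of 17 alternatives, among them DESeq2, the 5% mitochondrial limit and every fit without 1 mouse except replicate 1 of the 7-week controls or replicate 2 of the 13-week controls (adjusted p up to 0.219). The hypertrophic markers of these cells were lower at 13 weeks without overlap (29240 to 37990 against 17830 to 24350 CPM), and their part in these 6 values was not tested. In endothelial cells Id1 rose from 231, 206, 171 and 212 CPM at 7 weeks to 391, 342, 575 and 417 at 13 weeks, with no overlap, by 1.06 (SE 0.15, adjusted p = 0.00608). Of 17 alternatives 1 lost this call, the fit without replicate 1 of the 13-week mutants (adjusted p = 0.0552). Summed arterial markers of the endothelial class went from 439.9 to 698.2 CPM at 7 weeks up to 790.2 to 1317 at 13 weeks, with 8 of 8 genes higher, and their part in the Id1 value was not tested. In preOBs, where Bmp3 and Bmp4 rose, Id1 fell by 0.87 (SE 0.19, adjusted p = 0.0239), a call lost in 6 of 17 alternatives (adjusted p up to 0.415, and -0.40 without integration), 4 of them without replicate 2 of the 7-week controls, replicate 2 of the 7-week mutants, replicate 1 of the 13-week controls or replicate 2 of the 13-week mutants. The preOB markers of that class were higher at 13 weeks (18950 to 25140 against 25700 to 47810 CPM), and their part here was not tested. Of other antagonists 3 of 65 tests rose and 3 fell. Sost, the sclerostin gene of osteocytes, rose in OBs by 3.43 (log2, SE 0.42, adjusted p = 0.00557), from at most 0.132 CPM in any 7-week mouse to between 0.499 and 1.36 at 13 weeks, and passed in all 17 alternatives. In erythroid cells 0 of 37628445 UMIs were Sost, which allows a level of up to 0.0797 CPM by counting error, and hypertrophic GPCs reached 4.82 CPM. The receptor and SMAD lists gave 1 call each, both higher at 13 weeks, of 64 and 68 tests.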

How the data were processed

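The deposited values are unnormalized UMI counts for each gene in each barcode. Per the labels and methods the authors made them with Cell Ranger 6.1.2 on mm10 and went on in Seurat 4.3. The labels and the methods name different sequencers. Depth is given as total UMIs per library. Cells were kept with 200 to 6000 genes and at most 10% mitochondrial UMIs, the limits the study states, and doublets were removed by simulation (25% simulated, with an assumed rate that rose with the number of barcodes). Of 105359 barcodes 59629 cells remained. Libraries were integrated by reciprocal principal components in Seurat 5.3.0 (R 4.3.3) on 2000 variable genes, without the members and pathway genes, with 30 components. Leiden clustering (leidenalg 0.10.2, 20 neighbours, resolution 1) gave 35 clusters, named where at least 3 listed markers were raised 2-fold. The rule that divides Lepr+ OPs from preOBs was changed after the clusters were seen. Doublet rates called per library, cell filters and free RNA can shift detection, so shares were also taken after thinning to 2000 UMIs per cell.

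UMIs were summed per mouse and class where a mouse had at least 10 cells and tested with edgeR 4.0.16's quasi-likelihood test (TMM factors, filterByExpr, 4 group means over 8 mice). P-values were adjusted by Benjamini-Hochberg over all genes tested in a class, and called at 0.05. The contrasts were mutant against control at both ages, at 7 weeks and at 13 weeks, the difference between these, and 13 against 7 weeks. There were 2 mice in each of 4 groups. Replicate numbers were taken to pair mice where deviations from group means correlated above 0.1 in every comparison, which held between genotypes in 8 of 12 classes checked (r = 0.112 to 0.406) and between ages in 4. The number also divides the deeper from the shallower libraries. Alternatives were the block, DESeq2 1.42.0, no filter on low counts, each mouse left out, and other cell filters and clusterings. The block was the pair of mice for mutants against controls, and the replicate number for 13 against 7 weeks. The scripts were tested on simulated data. The members and gene lists were chosen with earlier results of these data known. Named genes are the members and, per list and contrast, at most 4 others of lowest p. Named here after their values were seen are the osteocyte-like and low-UMI clusters. Gene positions come from GENCODE on mm10.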

Additional observations from a re-analysis of the deposited data

How the results depend on the processing

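Of the 87 tests of members, 0 passed between mutants and controls at both ages, 7 with the replicate block, 2 without a filter on low counts, and 0 to 1 when each mouse was left out in turn. The fit without the filter also took in pairs of member and class outside the 87, so its counts are not out of 87. At 7 weeks the block gave 1. At 13 weeks it gave 2, dropping the filter 1, and fits without a mouse 0 to 1. The single call in those fits came without replicate 1 or replicate 2 of the 13-week mutants. Between 13 and 7 weeks 6 passed, against 12 with the block, 12 without a filter, 8 by DESeq2, 3 under the 5% mitochondrial limit and 3 to 6 with a mouse left out (3 without replicate 1 of the 7-week controls or replicate 2 of the 13-week mutants). In Sca1+ MSCs and pericytes, where mice of the same number did not deviate together, the block gave an adjusted p of 0.0429 for Fstl1 and 0.0335 for Sox4, respectively. Fits without a mouse leave a lone mouse in its group, assumed to vary like the other groups. The cause of these changes was not tested. Signs were compared across the alternatives for the calls of members and pathway genes and for the Sox4 calls at both ages without the block, and none changed. The Sox12 calls and the other log2 values were not compared. Without integration Lepr+ OPs merged with preOBs and gave no value of their own, and the first source of Nog became GPCs. The fit had 4 residual degrees of freedom in classes with all 8 mice, and 2 with the block for mutants against controls. With 2 mice per group and 13 pericytes in 1 mouse, small differences in the rare classes may have been missed.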
